A study of Homo sapiens with 15 samples.

Results

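The genes described here are 9 targets of the transcription factor NRF2 that defend cells against oxidants and electrophiles: AKR1C1, AKR1B10, NQO1, HMOX1, GCLC, GCLM, TXNRD1, SRXN1 and OSGIN1. They were followed through every probe set that the array annotation pairs with 1 of these symbols and no other, which gave 20 of the 54675 probe sets and 9 of the 19775 genes that could be named in this way. AKR1C1 was chosen by its measured level, which was higher in both extracts treated with a 003-type antibody than in the extract treated with antibody 004. Its levels in those extracts are therefore given as a description with no test, and no member was tested against the 004 extract.

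The cells were SKOV3ip1, an established human epithelial ovarian cancer line, and all cultures were kept for 7 days in their medium. The no-folate culture grew in medium without folate, and the other 4 cultures grew with folic acid at 2 to 10 nM, written as a physiological level in the labels, whose titles call the supplement 5-MTF or MTF. Of these, the 003 culture received antibody 003, the MORAb003 culture received MORAb003 (also written MORAb-003, an antibody to the folate receptor alpha encoded by FOLR1), the 004 culture received the control antibody 004, each for 24 hours, and the folate culture received no antibody. The labels do not say how 003 and MORAb003 differ. Each condition was 1 culture and 1 RNA extract, hybridised as 3 aliquots to 3 Affymetrix U133 Plus 2.0 arrays, 15 arrays in all. The p-values below therefore set 1 extract against another and hold no spread between cultures, and in such bulk RNA a smaller share of cells of some kind and less RNA per cell cannot be told apart.

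In unstressed cells NRF2, the product of NFE2L2, is bound by KEAP1 and handed to the CUL3 and RBX1 ubiquitin ligase for degradation. Oxidants and electrophiles modify KEAP1, NRF2 accumulates, pairs with small MAF proteins (MAFF, MAFG, MAFK) and binds antioxidant response elements, sites that the repressor BACH1 can also occupy. The members cover the main arms of this programme: NADPH-dependent reductases, glutathione synthesis, the thioredoxin system and haem breakdown.

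Levels are the authors' log2 values, so a difference of 1 is a doubling. Tests were run on probe sets with at least 1 extract mean at or above 6.60, the median of the whole array set, and a call needed an adjusted limma p under 0.05 (Benjamini-Hochberg) and 1.5-fold or more between the means. The array of the 004 extract with replicate number 1 stood apart: its best correlation with another 004 array was 0.950, against 0.995 to 0.998 for the other 14 arrays with their own group, and across member probe sets it differed from the mean of the other 004 arrays by -1.94 to 0.37. It widens the shared error of the fit, so counts of calls and the differences that turn on it are also given without it. The extracts also differed in a measure of RNA integrity, the 3′ minus 5′ signal of the actin control probe sets, which was 4.09 ± 0.16 in no-folate, 4.02 ± 0.10 in 003, 2.42 ± 0.13 in MORAb003, 3.46 ± 0.31 in 004 and 3.24 ± 0.13 in folate arrays (SD, n = 3 each, log2). The GAPDH gap ran from 1.21 ± 0.14 in MORAb003 to 2.49 ± 0.03 in 003 arrays. RNA integrity and condition cannot be told apart, since each condition is 1 extract. Of 12 epithelial markers, 11 reached 6.60 in every extract, MSLN being the exception. The 5 leukocyte markers measured stayed between 5.80 and 7.13, and 2 of them reached 6.60 in each extract. The 7 fibroblast and endothelial markers lay between 5.64 and 9.35, with 5 or 6 of them reaching 6.60. Reaching 6.60 therefore does not by itself separate these lists.

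The antioxidant response element has the core TGACNNNGC, where N is any base. It was searched on both strands of the window from 250 bases before to 50 bases after each gene start in the RefSeq table for GRCh38.p14, which holds 8 windows for 7 of the 9 members. GCLM and TXNRD1 had a match and the other 5 members with a window did not, and 13.3% of all 35116 windows held one. Sequence outside the windows was not searched, so a window without a match does not mean that the gene lacks the element. The windows below are those of AKR1C1, of both members with a match, and of OSGIN1, the member called lower in MORAb003 against 003, read 5′ to 3′ on the gene's strand, with matches to the core in capitals as they read on that strand.
AKR1C1, chr10:4963165-4963464, plus strand: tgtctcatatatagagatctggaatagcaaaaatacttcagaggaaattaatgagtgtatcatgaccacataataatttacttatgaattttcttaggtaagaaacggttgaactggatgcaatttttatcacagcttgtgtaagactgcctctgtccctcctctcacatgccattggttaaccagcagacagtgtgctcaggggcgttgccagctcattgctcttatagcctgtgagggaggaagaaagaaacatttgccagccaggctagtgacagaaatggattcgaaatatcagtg
GCLM, chr1:93909381-93909680, minus strand: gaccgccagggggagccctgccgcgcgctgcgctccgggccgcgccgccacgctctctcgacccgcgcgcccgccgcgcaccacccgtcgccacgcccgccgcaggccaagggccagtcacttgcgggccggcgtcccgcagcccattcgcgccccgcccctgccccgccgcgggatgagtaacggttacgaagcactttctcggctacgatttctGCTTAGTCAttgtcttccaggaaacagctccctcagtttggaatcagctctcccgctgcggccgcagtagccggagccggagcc
TXNRD1, chr12:104215529-104215828, plus strand: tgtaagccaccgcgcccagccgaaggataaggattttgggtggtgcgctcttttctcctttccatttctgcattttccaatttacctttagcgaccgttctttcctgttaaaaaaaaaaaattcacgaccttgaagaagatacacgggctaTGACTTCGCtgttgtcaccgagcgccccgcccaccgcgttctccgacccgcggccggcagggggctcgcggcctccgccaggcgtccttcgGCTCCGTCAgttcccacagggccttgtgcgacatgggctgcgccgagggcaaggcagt
TXNRD1, chr12:104286782-104287081, plus strand: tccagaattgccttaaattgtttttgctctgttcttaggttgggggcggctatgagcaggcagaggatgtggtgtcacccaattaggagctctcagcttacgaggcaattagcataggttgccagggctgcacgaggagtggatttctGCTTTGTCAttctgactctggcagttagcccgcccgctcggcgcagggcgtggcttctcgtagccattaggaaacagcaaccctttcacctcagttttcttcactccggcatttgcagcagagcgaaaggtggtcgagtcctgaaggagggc
OSGIN1, chr16:83952990-83953289, plus strand: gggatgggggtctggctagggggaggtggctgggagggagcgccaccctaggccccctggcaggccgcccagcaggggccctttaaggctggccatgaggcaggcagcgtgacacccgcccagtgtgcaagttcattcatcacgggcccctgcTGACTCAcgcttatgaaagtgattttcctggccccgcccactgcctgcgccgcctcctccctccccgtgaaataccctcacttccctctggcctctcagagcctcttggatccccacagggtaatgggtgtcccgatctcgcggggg
In the OSGIN1 window the capitals instead mark the AP-1 motif TGANTCA, which begins 97 bases before the gene start and occurs in 7.71% of all windows. The GCLM match begins 34 bases before the gene start, the matches of the first TXNRD1 window 99 and 8 bases before it and that of the second window 102 bases before it. None of them overlapped an AP-1 motif. A match is a description of letters and not a measured binding site, and the window of AKR1C1 holds neither motif.

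AKR1C1 encodes an aldo-keto reductase that uses NADPH to reduce steroids such as progesterone and reactive carbonyls. Its brightest probe set, 204151_x_at, read 11.24, 11.12 and 11.17 on the no-folate arrays, 11.13, 11.01 and 11.03 on the 003 arrays, 11.14, 11.26 and 11.19 on the MORAb003 arrays, 9.86, 10.56 and 10.62 on the 004 arrays, and 10.64 on each of the 3 folate arrays. The 9 arrays of the no-folate, 003 and MORAb003 extracts thus all lay above the 6 arrays of the 004 and folate extracts. In descending order of means the extracts ran MORAb003 (11.19), no-folate (11.18), 003 (11.06), folate (10.64) and 004 (10.35), and the ranges of neighbours overlapped among the 3 highest but not below them.

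The differences that led to its choice were 0.71 for 003 against 004 and 0.85 for MORAb003 against 004. They were 0.47 and 0.60 without the 004 array with replicate number 1, and on the later array date, which has 1 array of each extract, they were 0.41 and 0.57. Against the folate extract, whose 3 arrays are shared by the following values, the 003 extract differed by 0.41, the MORAb003 extract by 0.55 and the 004 extract by -0.30, or -0.05 without that array. The comparison of no-folate with folate played no part in the choice of AKR1C1 and was tested. The difference was 0.53 (1.45-fold, SE 0.15) with an adjusted p of 0.057 by limma, which misses the threshold. Without the 004 array it was 3.06e-05, with the difference still below 1.5-fold. After quantile normalization of the 15 arrays it was 0.63 with an adjusted p of 9.58e-05, and passed both limits. The difference was 0.54 on the earlier and 0.52 on the later array date.

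The other AKR1C1 probe sets differed in how far they followed this order. 216594_x_at averaged 10.43 in no-folate, 10.32 in 003, 10.56 in MORAb003, 9.80 in 004 and 10.02 in folate arrays, with the same 9 arrays above the same 6. Its no-folate minus folate difference was 0.41 (SE 0.15, adjusted p = 0.128 by limma, 5.46e-04 without the 004 array). The suffix of both probe sets, x, marks probes that can also bind other transcripts, and the AKR1C genes are near-identical in sequence, so signal from AKR1C2 may be included. 217626_at, which is dim, averaged 6.86 in no-folate, 6.61 in 003, 6.59 in MORAb003, 6.60 in 004 and 6.65 in folate arrays. The no-folate mean was the highest here, by 0.21 against folate (SE 0.11, adjusted p = 0.348), with its range overlapping that of 003. 1555856_s_at and 1555855_at stayed below 6.60 in the mean of every extract and were not tested. Averaged over all 5 probe sets, AKR1C1 differed by 0.27 between 003 and 004 and by 0.29 between MORAb003 and 004.

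**Figure D1:**
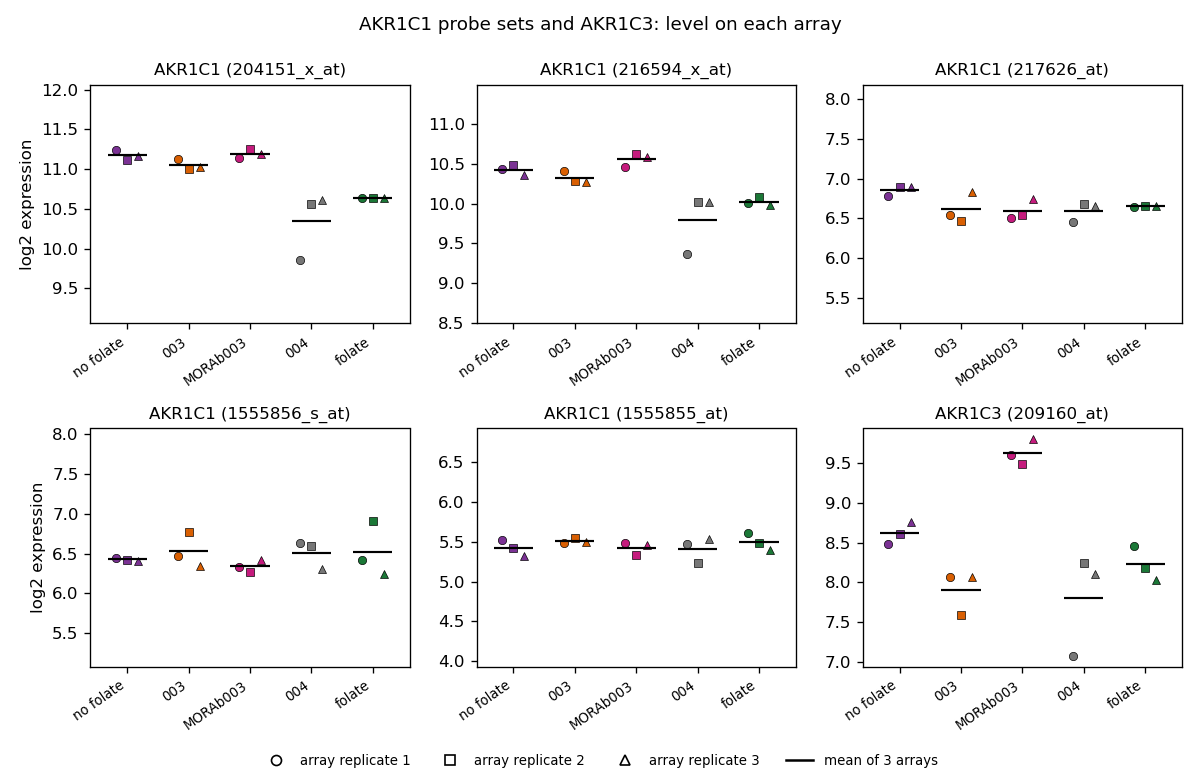
Level of the 5 AKR1C1 probe sets and of AKR1C3 on each array (vertical axes, log2 expression, each spanning the same number of units) in the 5 extracts (horizontal axes). Points are arrays, with the shape giving the replicate number, and lines are means of 3 arrays. In 204151_x_at and 216594_x_at the 9 no-folate, 003 and MORAb003 arrays lie above the 6 others, while the 3 dim probe sets show no such step.

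The genes whose profile over the 5 extract means was most like that of AKR1C1 were taken from 24957 probe sets with 1 gene symbol, by the root mean square difference of centred means. They were COPE (0.024), COBLL1 (0.040), CENPB (0.048), SCGB2A1 (0.051) and AKR1C2 (0.051), where AKR1C1's own deviation from its mean was 0.33. COPE 201264_at, for example, averaged 10.22 in no-folate, 10.08 in 003, 10.21 in MORAb003, 9.36 in 004 and 9.72 in folate arrays. The probe sets of the other 8 members had differences of 0.28 to 0.49, within the run of all 24957 candidates, whose median was 0.37 and quartiles 0.31 and 0.44. These measures describe 5 extract means, among them the 3 by which AKR1C1 was chosen, and the 004 mean includes the array that stood apart.

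AKR1B10, an aldo-keto reductase of retinal and other aldehydes, was dim on its only probe set. 206561_s_at read 6.28, 6.32 and 6.34 on no-folate, 6.10, 6.43 and 6.60 on 003, 6.92, 6.63 and 6.84 on MORAb003, 6.32, 6.32 and 6.37 on 004, and 6.45, 6.71 and 6.44 on folate arrays. The MORAb003 arrays were above all 003 arrays and overlapped the folate arrays. MORAb003 exceeded 003 by 0.41 (SE 0.13, adjusted p = 0.0175 by limma, 0.00445 without the 004 array), which is below 1.5-fold. The probe set passed the filter on low values only through its MORAb003 mean of 6.79, the other means being 6.31 to 6.53. These p-values are therefore no independent support for the difference. Ordered by mean, each extract overlapped its neighbour.

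NQO1, which reduces quinones by a 2-electron transfer and so spares the cell redox cycling, was bright, and its 3 probe sets ran together. 201468_s_at read 12.35, 12.43 and 12.56 on no-folate, 11.97, 11.88 and 12.03 on 003, 12.42, 12.46 and 12.53 on MORAb003, 11.77, 12.34 and 12.37 on 004, and 12.40, 12.27 and 12.29 on folate arrays. All 3 arrays of 003 were below every array of no-folate, MORAb003 and folate. On all 3 NQO1 probe sets the 003 arrays likewise lay below the folate arrays, with differences of -0.36 for 201468_s_at, -0.30 for 210519_s_at and -0.33 for 201467_s_at. Their adjusted p was 0.160, 0.236 and 0.446 with all arrays, and 0.00211, 0.00489 and 0.00455 without the 004 array that stood apart, with no difference reaching 1.5-fold. MORAb003 exceeded 003 by 0.51, 0.30 and 0.35 on the same probe sets in that order, each below 1.5-fold. The adjusted p by limma was 0.00878, 0.0912 and 0.238 with all arrays, and 2.22e-05, 0.00167 and 0.00103 without the 004 array. After quantile normalization these differences were smaller, at 0.35, 0.13 and 0.16 (adjusted p by limma 0.00122, 0.173 and 0.262). Those of 003 against folate were then -0.24, -0.19 and -0.23 (0.0389, 0.119 and 0.209). Against folate, no-folate differed by 0.07 to 0.17, with adjusted p of 0.724 to 0.902 with all arrays and 0.115 to 0.57 without the 004 array. AKR1C1 and NQO1, both reductases, thus differed in order, since the 003 extract was among the 3 highest for AKR1C1 and the lowest for NQO1 on 201468_s_at.

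GCLC and GCLM encode the catalytic and the modifier subunit of glutamate-cysteine ligase, the rate-limiting enzyme of glutathione synthesis, and both were highest in MORAb003 on every tested probe set. GCLC 202922_at read 8.05, 8.03 and 8.03 on no-folate, 8.0, 7.84 and 8.17 on 003, 9.20, 9.24 and 9.02 on MORAb003, 6.47, 8.51 and 8.32 on 004, and 8.71, 8.27 and 8.35 on folate arrays. The 3 MORAb003 arrays were above all other 12. GCLC rose by 1.15 in MORAb003 against 003 (2.22-fold, SE 0.37, adjusted p = 0.0215 by limma, 2.18e-07 without the 004 array). The call was lost when 003 replicate 1, 003 replicate 2, MORAb003 replicate 1 or MORAb003 replicate 2 was left out, with adjusted p of 0.0554, 0.0744, 0.0594 and 0.0636 and differences of 1.07 to 1.15. It was also lost after quantile normalization (difference 0.98, adjusted p = 0.0557). Against folate, the MORAb003 difference was 0.71 (SE 0.37) with an adjusted p of 0.221, or 1.15e-04 and called without the 004 array. The second probe set, 202923_s_at, averaged 8.74 in no-folate, 8.56 in 003, 9.16 in MORAb003, 8.34 in 004 and 8.93 in folate arrays, and its MORAb003 minus 003 difference was 0.60 (SE 0.30, adjusted p = 0.115, 5.31e-05 and called without the 004 array). 1555330_at stayed between 6.06 and 6.60 on all arrays and was not tested.

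GCLM 234986_at read 8.28, 8.31 and 9.01 on no-folate, 8.24, 8.39 and 8.82 on 003, 9.40, 9.49 and 9.41 on MORAb003, 6.94, 8.59 and 8.70 on 004, and 9.10, 9.08 and 8.86 on folate arrays. Again the MORAb003 arrays were the 3 highest of 15. GCLM rose by 0.95 on this probe set in MORAb003 against 003 (1.93-fold, SE 0.35, adjusted p = 0.0429 by limma, 1.02e-04 without the 004 array). This call was close to the threshold: leaving out 1 of 10 arrays, namely any folate or MORAb003 array, 003 replicate 1 or 2, or no-folate replicate 1 or 2, ended it, with adjusted p of 0.0517 to 0.131 and differences of 0.83 to 0.97. Quantile normalization ended it too (difference 0.74, adjusted p = 0.11). On this probe set the difference was 1.13 on the earlier and 0.59 on the later array date. The brightest probe set, 203925_at, averaged 10.79 in no-folate, 10.91 in 003, 11.36 in MORAb003, 10.88 in 004 and 11.28 in folate arrays. It differed by 0.44 between MORAb003 and 003 (SE 0.19, adjusted p = 0.0696, 0.00169 without the 004 array) and by -0.49 between no-folate and folate (adjusted p = 0.163, 0.00248 without it). On the third probe set, 236140_at, MORAb003 and 003 differed by 0.61 (SE 0.31, adjusted p = 0.118, 0.00291 and called without it), with 0.83 on the earlier and 0.17 on the later array date. The 3 GCLM probe sets had MORAb003 highest and folate second in mean.

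TXNRD1 encodes the cytosolic thioredoxin reductase, which returns electrons from NADPH to thioredoxin, and it was the member called lower without folate. GCLM 203925_at (-0.49) and GCLC 202922_at (-0.41) also had every no-folate array below every folate array but were not called. 201266_at read 12.36, 12.55 and 12.39 on no-folate, 12.68, 12.72 and 12.63 on 003, 13.09, 13.35 and 13.13 on MORAb003, 12.66, 13.16 and 12.99 on 004, and 13.16, 12.91 and 13.07 on folate arrays. Every no-folate array was below every array of the other extracts. TXNRD1 fell by 0.61 on the log2 scale in no-folate against folate (SE 0.13, adjusted p = 0.0124 by limma, 1.03e-04 without the 004 array). The difference, 1.53-fold, is close to the fold limit, and the call was lost without no-folate replicate 1 (adjusted p = 0.0612), no-folate replicate 3 (0.0525), folate replicate 1 (0.0769) or folate replicate 3 (0.0573). After quantile normalization it was -0.49 (adjusted p = 0.00353) and below 1.5-fold. It was -0.58 on the earlier and -0.68 on the later array date. 003 against folate gave -0.37 (SE 0.13, adjusted p = 0.121, 0.00547 without the 004 array), and MORAb003 against 003 gave 0.52 (SE 0.13, adjusted p = 0.0053, 1.09e-04 without it), below 1.5-fold. The order of the extracts by mean TXNRD1 level, MORAb003 (13.19), folate (13.05), 004 (12.94), 003 (12.68) and no-folate (12.43), is also their order by the actin gap, smallest gap first, and its part in the result was not tested. 1561080_at, a dim TXNRD1 probe set, stayed between 4.46 and 4.77 and was not tested.

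SRXN1, sulfiredoxin, which restores overoxidised peroxiredoxins, varied little in the deposited values. 225252_at averaged 11.50 in no-folate, 11.71 in 003, 11.44 in MORAb003, 11.55 in 004 and 11.68 in folate arrays, and in that ranking each extract overlapped its neighbour. Its MORAb003 arrays lay below the 003 arrays by 0.27 (SE 0.12, adjusted p = 0.0827, 0.00505 without the 004 array) and below the folate arrays by 0.24 (SE 0.12, adjusted p = 0.209, 0.0188 without it). The sign of both values is opposite to that of TXNRD1, GCLC and GCLM in the same comparisons as deposited. After quantile normalization the SRXN1 differences were larger but still below 1.5-fold. They were -0.46 for MORAb003 against 003 (adjusted p = 4.25e-04 by limma) and -0.30 for MORAb003 against folate (0.0181).

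HMOX1, haem oxygenase, which opens haem to biliverdin, iron and carbon monoxide, was flat. 203665_at read 7.85, 7.98 and 7.98 on no-folate, 7.94, 8.05 and 8.0 on 003, 8.08, 7.86 and 7.93 on MORAb003, 7.98, 8.0 and 7.98 on 004, and 7.95, 7.91 and 8.05 on folate arrays. Ordered by mean, each extract overlapped its neighbour. The 5 means spanned 0.06, and the 5 tested differences lay within -0.04 to 0.03 (SE 0.09 each, smallest adjusted p = 0.727). The array that stood apart was not low for this gene.

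OSGIN1, an oxidative stress-induced growth inhibitor, was the member called lower in MORAb003 against 003. 219475_at read 7.98, 7.58 and 7.68 on no-folate, 8.04, 8.18 and 7.95 on 003, 7.11, 6.95 and 7.40 on MORAb003, 6.97, 7.68 and 7.38 on 004, and 7.51, 7.66 and 7.49 on folate arrays. The 003 arrays were above all arrays of MORAb003, 004 and folate, and the MORAb003 arrays were below all of no-folate, 003 and folate. OSGIN1 fell by 0.90 on the log2 scale in MORAb003 against 003 (SE 0.17, adjusted p = 9.96e-04 by limma, 9.52e-06 without the 004 array). The call held when any 1 of the 15 arrays was left out, and the difference was -1.08 on the earlier and -0.55 on the later array date, where each extract has 1 array. Against folate, 003 differed by 0.51 (SE 0.17, adjusted p = 0.115, 0.00561 without the 004 array) and MORAb003 by -0.40 (SE 0.17, adjusted p = 0.141, 0.0173 without it).

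The other members are set against 004 as a description only. OSGIN1 differed from 004 by 0.71 in 003 (0.53 without the array that stood apart), with no overlap of arrays, and by -0.19 in MORAb003 (-0.38 without it). GCLC 202922_at differed by 0.24 in 003 (-0.41 without that array) and by 1.39 in MORAb003 (0.74 without it), and GCLM 234986_at by 0.41 (-0.16) and 1.35 (0.78). In 003 the sign on these 2 probe sets turned with the 1 array (on GCLM 236140_at it did not, at 0.60 and 0.13), while in MORAb003 the arrays of both subunits, on every tested probe set, lay above all 004 arrays. TXNRD1 differed by -0.26 in 003 (-0.40 without that array) and by 0.25 in MORAb003 (0.12), and NQO1 201468_s_at by -0.20 (-0.40) and 0.31 (0.11). AKR1C1 and OSGIN1 were the members whose brightest probe set had all 003 arrays above all 004 arrays.

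**Figure D2:**
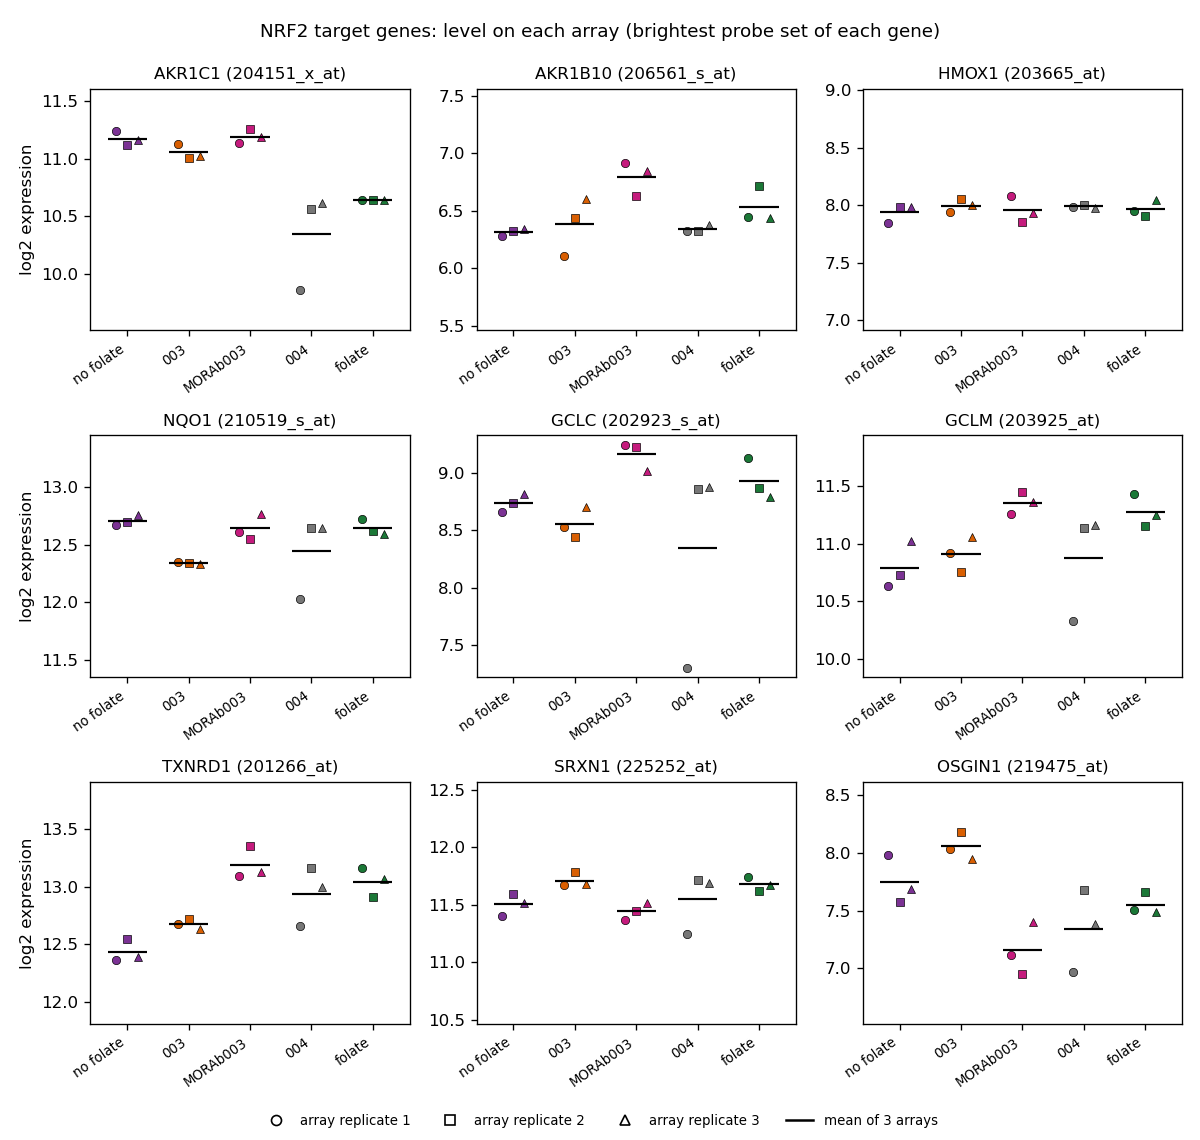
Level of each of the 9 members on each array (vertical axes, log2 expression of the gene's brightest probe set, each spanning the same number of units) in the 5 extracts (horizontal axes). Points are arrays, with the shape giving the replicate number, and lines are means of 3 arrays. AKR1C1 separates the no-folate, 003 and MORAb003 arrays from the 004 and folate arrays, TXNRD1 is lowest in no-folate, OSGIN1 is low in MORAb003 and HMOX1 is level.

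Counted over the 5 comparisons, few member probe sets were called. In no-folate against folate, where 16 of the 20 probe sets passed the filter on low values, limma called 0 higher and 1 lower (TXNRD1), against 1.68% of all 30127 probe sets tested higher and 2.28% lower. At an unadjusted p under 0.05 there were 4, against 19.1% of all probe sets. Without the 004 array the counts were the same, against 2.25% higher and 5.09% lower, and 9 had an unadjusted p under 0.05, against 37.6%. The median difference of the 9 genes was -0.17, against 0.01 over all genes.

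In the other comparisons AKR1C1 was left out and 13 of the 15 probe sets of the 8 remaining genes were tested. In 003 against folate limma called 0, against 0.488% of all probe sets higher and 1.75% lower, with 4 at an unadjusted p under 0.05, against 20.8% of all. Without the 004 array it again called 0, against 0.838% higher and 6.05% lower, with 9 at an unadjusted p under 0.05, against 42.8%. In MORAb003 against folate limma called 0, against 6.06% higher and 1.75% lower, with 1 at an unadjusted p under 0.05, against 28.8% of all. Without the 004 array it called 1 (GCLC, higher), against 9.31% higher and 1.99% lower, with 6 at an unadjusted p under 0.05, against 50.5%. In 004 against folate limma called 0, with 2 at an unadjusted p under 0.05 (1 without that array), and 0% of all probe sets were called in either direction, with 8.9% of them (3.82% without it) at an unadjusted p under 0.05. The 4 comparisons against folate share the folate arrays. The median difference of the 8 genes was -0.23 in 003, 0.04 in MORAb003 and -0.20 in 004 against folate, beside 0.03, -0.04 and -0.13 over all genes. Without the array that stood apart, the medians for 004 were -0.01 for the members and 0.01 over all genes.

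MORAb003 against 003 gave the most calls, with 2 higher (GCLC and GCLM) and 1 lower (OSGIN1) of 13, against 17.3% of all probe sets higher and 7.52% lower. Without the 004 array there were 4 higher and 1 lower, against 18.5% and 7.77%. The count fell to 1 without 003 replicate 1, 003 replicate 2, MORAb003 replicate 1 or MORAb003 replicate 2, and after quantile normalization, and OSGIN1 was then the probe set called. The members' share is near that of all probe sets in this comparison. At an unadjusted p under 0.05 by limma there were 9 of the 13, against 52.5% of all probe sets. Without the 004 array there were 12, against 70.9%. The median difference of the 8 genes was 0.36, against -0.09 over all genes. The actin gap of MORAb003 arrays was smaller than that of 003 arrays (2.42 against 4.02), and its part in these results was not tested.

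**Figure D3:**
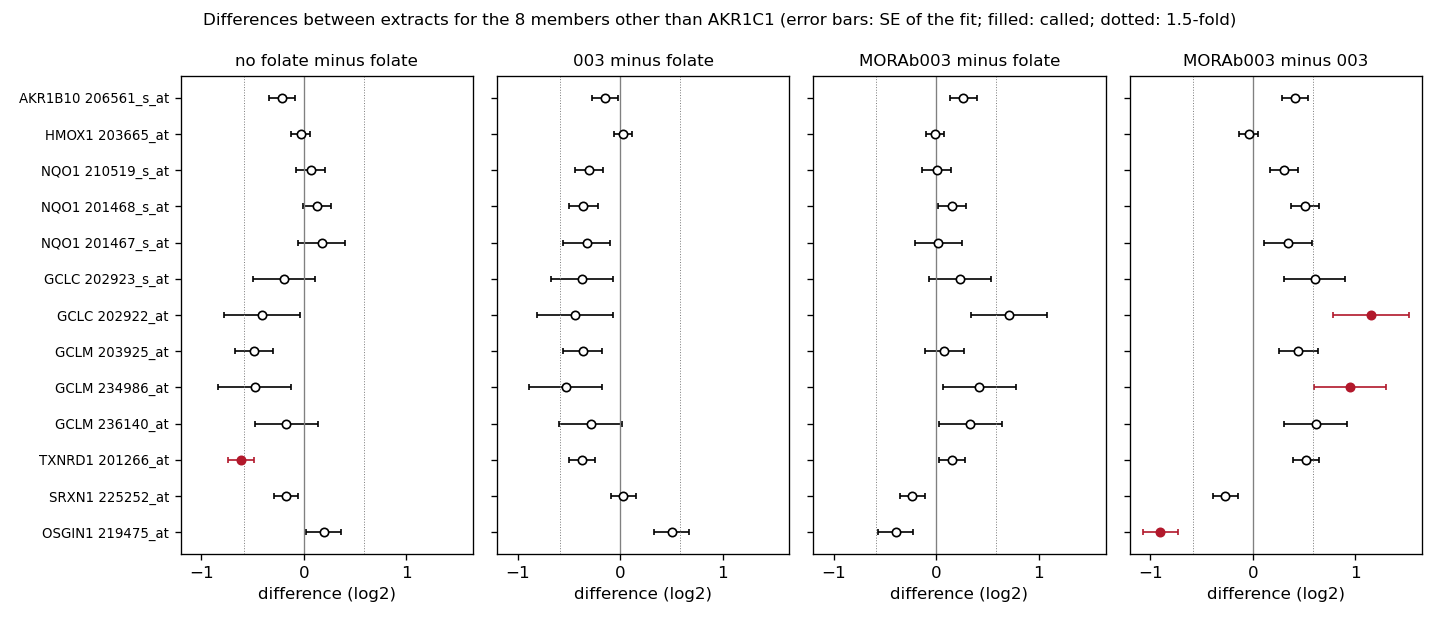
Difference of log2 level (horizontal axes) for the 13 tested probe sets of the 8 members other than AKR1C1 (vertical axis) in 4 comparisons. Points are differences of means of 3 arrays, bars are the standard error of the fit, filled points are called and dotted lines mark 1.5-fold. Called are TXNRD1 in no-folate against folate, and GCLC, GCLM and OSGIN1 in MORAb003 against 003.

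**Figure D4:**
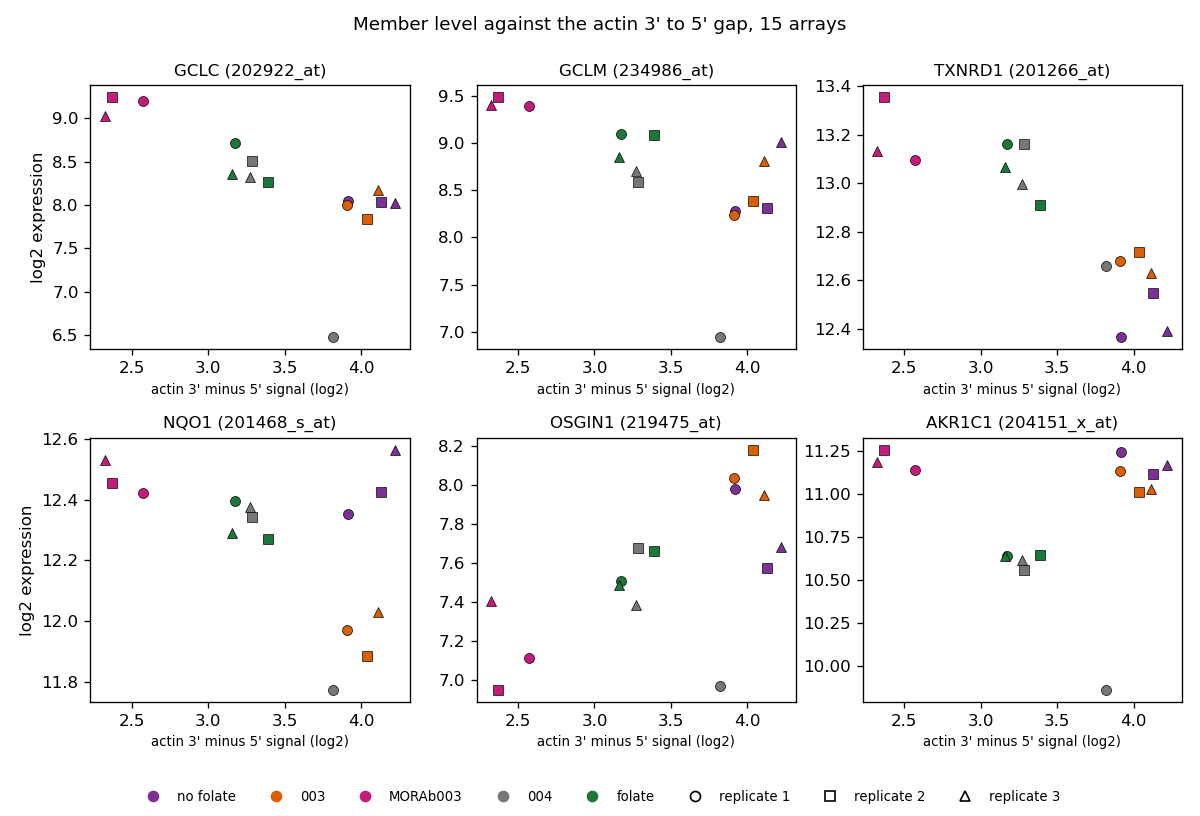
Level of 6 member probe sets (vertical axes, log2 expression) against the actin 3′ minus 5′ gap (horizontal axes, log2) on the 15 arrays, with the colour giving the extract and the shape the replicate number. The extracts sit at different gaps, from 2.42 in MORAb003 to 4.09 in no-folate on average, and TXNRD1 is higher in extracts with a smaller gap, while AKR1C1 is high in the extracts at both ends.

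The wider pathway was read from 8 lists of 73 genes, of which 66 were measured by a probe set of their own and 64 were tested, each by its brightest probe set. Of the sensor and its partners, NFE2L2, KEAP1, MAFG and MAFF were called, all in MORAb003 comparisons. Of the 10 tested in this list, MORAb003 against 003 called 2 higher and 2 lower, against 17.6% and 7.79% of all genes. MORAb003 against folate called 1 higher and 2 lower, against 4.97% and 1.84%. NFE2L2 201146_at read 9.86, 9.99 and 10.16 on no-folate, 10.16, 9.91 and 10.12 on 003, 10.90, 10.77 and 10.97 on MORAb003, 9.67, 10.49 and 10.65 on 004, and 10.63, 10.44 and 10.47 on folate arrays. It rose by 0.81 in MORAb003 against 003 (SE 0.19, adjusted p = 0.00437 by limma), and the MORAb003 arrays were the 3 highest. KEAP1 202417_at read 10.12, 10.15 and 10.09 on no-folate, 10.12, 10.06 and 10.09 on 003, 9.29, 9.38 and 9.28 on MORAb003, 9.37, 9.94 and 9.96 on 004, and 9.88, 9.90 and 10.04 on folate arrays. It fell by 0.78 in MORAb003 against 003 (SE 0.13, adjusted p = 4.79e-04) and by 0.63 against folate (SE 0.13, adjusted p = 0.00761), the second call being lost without folate replicate 3, where the difference was -0.58. The small MAF proteins split. MAFG fell by 0.92 in MORAb003 against 003 (adjusted p = 5.04e-04) and by 0.78 against folate (0.00642), whereas MAFF rose by 1.25 (0.0251) and 1.43 (0.0361). For MAFF the call was lost without any 1 of 4 arrays against 003 and 9 arrays against folate (adjusted p up to 0.104 and 0.133), and it was lost in both after quantile normalization (0.0634 and 0.0553). Without the 004 array the calls of these 4 genes held, with adjusted p of 2.67e-08 to 4e-06. CUL3, the ligase scaffold, was not called with all arrays. CUL3 201371_s_at averaged 9.89 in no-folate, 10.23 in 003, 10.47 in MORAb003, 10.31 in 004 and 10.57 in folate arrays. The no-folate arrays lay below all folate arrays, by 0.69 (SE 0.20, adjusted p = 0.0628 by limma, 1.19e-05 and called without the 004 array), while MORAb003 differed from folate by -0.10 (0.782, 0.326 without it). BACH1 was not called in any comparison, with differences of -0.09 to 0.22.

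**Figure D5:**
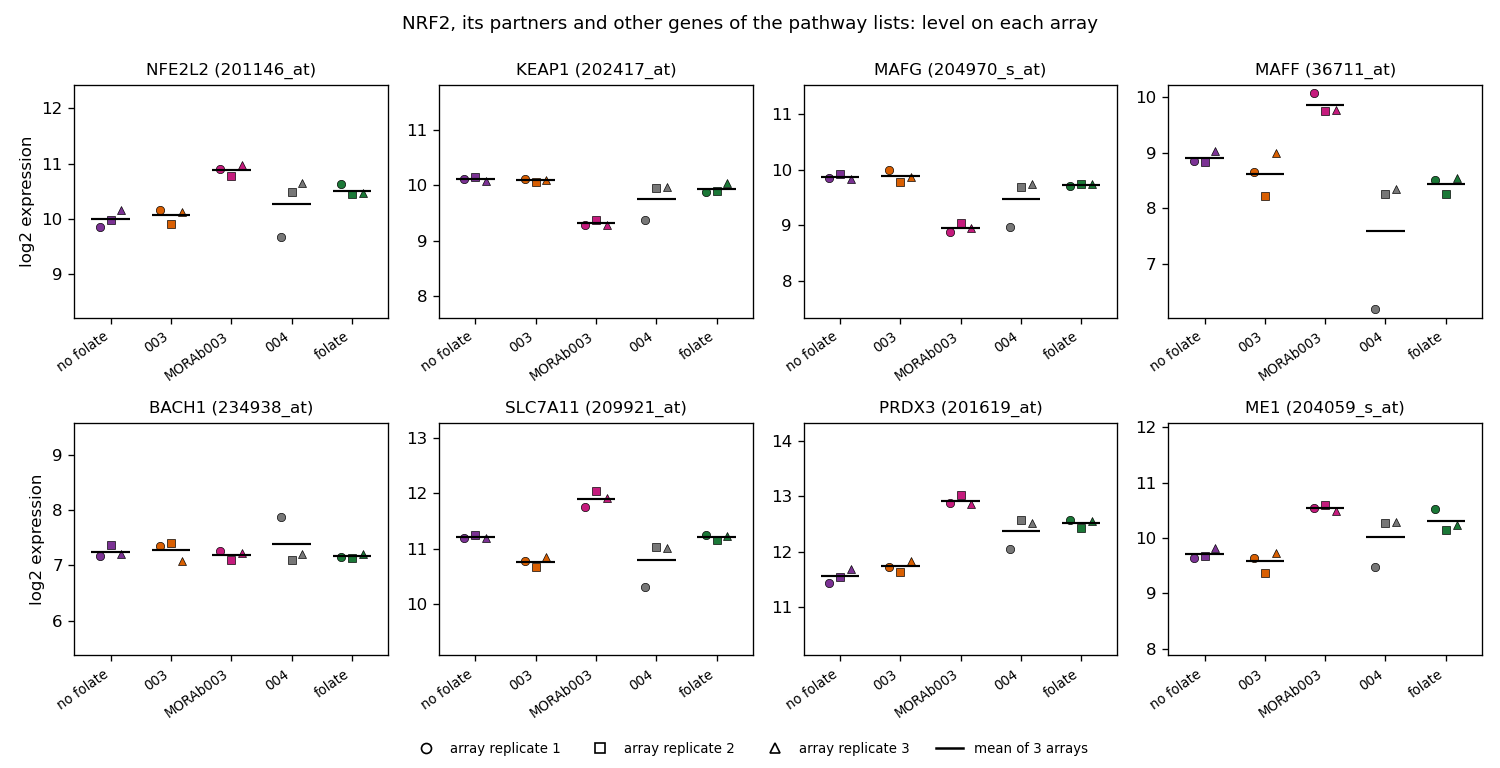
Level of NFE2L2, KEAP1, MAFG, MAFF, BACH1, SLC7A11, PRDX3 and ME1 on each array (vertical axes, log2 expression, each spanning the same number of units) in the 5 extracts (horizontal axes). Points are arrays, with the shape giving the replicate number, and lines are means of 3 arrays. The MORAb003 arrays are the highest for NFE2L2 and the lowest for KEAP1 except for 1 array of 004 between them.

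Over all 8 lists, MORAb003 against 003 called 18 genes higher and 4 lower of 64, against 17.6% of all 14369 genes higher and 7.79% lower, and the counts were the same without the 004 array, against 18.7% and 8%. The median of the 64 was 0.05, against -0.09 over all genes. The aldo-keto and carbonyl list had 6 of 11 higher, the most of any list. AKR1C3, which makes and clears steroid and prostaglandin hormones, rose by 1.72, ALDH1A1, a retinal dehydrogenase, by 1.42, UGDH, which makes the glucuronide donor, by 1.37 and EPHX1, an epoxide hydrolase, by 1.06. In the glutathione list SLC7A11, the cystine importer, rose by 1.14, the glutathione transferases GSTA4 by 0.96 and MGST1 by 0.81, while the transferase GSTP1 fell by 0.75. In the thioredoxin and peroxiredoxin list SESN3, a stress-induced sestrin, rose by 2.38, the mitochondrial peroxiredoxin PRDX3 by 1.19 and PRDX4 by 0.63, while mitochondrial TXN2 fell by 0.83. SESN3 225123_at was dim outside MORAb003 (8.30), averaging 5.92 in 003, 6.27 in no-folate, 6.25 in 004 and 6.84 in folate arrays. For NADPH supply, the malic enzyme ME1 rose by 0.97 and PGD, of the pentose phosphate pathway, by 0.89. FECH, the last enzyme of haem synthesis, rose by 0.66 and the efflux pump ABCC4 by 0.61. PIR, an iron-binding nuclear protein, rose by 0.60. For these genes the adjusted p by limma ran from 2.26e-05 to 0.0195, and without the 004 array from 1.81e-09 to 0.00265. Of the 22 calls, 17 held when any 1 array was left out. Besides MAFF, those of PIR (without 003 replicate 1, 003 replicate 2 or MORAb003 replicate 3, differences 0.50 to 0.61, adjusted p up to 0.0804), FECH (without 003 replicate 2 or MORAb003 replicate 2, adjusted p 0.0702 and 0.0626), ABCC4 (without 003 replicate 1, 003 replicate 2 or MORAb003 replicate 3, differences 0.57 to 0.58) and PRDX4 (without 003 replicate 2, difference 0.58) were lost. After quantile normalization PIR, FECH, ABCC4 and PRDX4 fell below 1.5-fold, with differences of 0.43 to 0.49. None of the superoxide and peroxide list was called. The order of the extracts by mean that TXNRD1 shared with the actin gap was also that of NFE2L2, PRDX3, ABCC4 and IDH1, taken up below. SLC7A11 and AKR1C3, for example, had other orders. The part of the gap in the pathway results was not tested.

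In MORAb003 against folate 6 genes were higher and 2 lower of 64, against 4.97% and 1.84% of all genes, or 7 and 2 without the 004 array, against 8.35% and 2%. Besides MAFF, SESN3 rose by 1.46 (adjusted p = 0.00424 by limma), AKR1C3 by 1.40 (0.0027), EPHX1 by 0.94 (0.0484), SLC7A11 by 0.69 (0.0115) and AKR1C2, read by probes that may bind AKR1C1 too, by 0.59 (0.00906), and KEAP1 and MAFG were the genes called lower. AKR1C1 was chosen by its level in extracts that include MORAb003, and AKR1C2 has a similar profile. The AKR1C2 call, which is among the 6, is therefore no independent support. The call of EPHX1 was lost without any 1 of 12 arrays (adjusted p up to 0.178), that of SLC7A11 without folate replicate 2 (0.0552) or MORAb003 replicate 2 (0.0605), and that of AKR1C2 without folate replicate 2, folate replicate 3 or MORAb003 replicate 1, where its difference was 0.56 to 0.58. Quantile normalization ended the calls of EPHX1 (adjusted p = 0.0887) and AKR1C2 (difference 0.50). The gene added without the 004 array was UGDH (0.65).

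In no-folate against folate 1 gene was higher and 4 lower, against 0.981% and 2.1% of all genes, or 1 and 6 without the 004 array, against 1.35% and 5.17%. GPX2, a glutathione peroxidase of epithelia, rose by 0.64 (adjusted p = 0.0241 by limma). PRDX3 fell by 0.96 (0.00119), ALDH1A1 by 0.89 (0.0367), ABCC4 by 0.85 (0.00843) and IDH1, an NADPH-making isocitrate dehydrogenase, by 0.67 (0.0167). The call of PRDX3 held without any 1 array. That of ABCC4 was lost without folate replicate 1 (0.055), and those of GPX2, IDH1 and ALDH1A1 without any 1 of 5, 4 and 9 arrays. After quantile normalization GPX2 (adjusted p = 0.0818) and IDH1 (difference -0.56) were not called. The genes added without the 004 array were CUL3 and ME1 (-0.59). In 003 against folate 0 genes were higher and 3 lower, against 0.438% and 1.61%, or 0 and 6 without the 004 array, against 0.741% and 6.55%. ALDH1A1 fell by 1.06 (adjusted p = 0.0264), PRDX3 by 0.78 (0.0107) and PTGR1, a prostaglandin and alkenal reductase, by 0.59 (0.0194), and each call was lost without folate replicate 1, folate replicate 3, 003 replicate 1 or 003 replicate 2 (adjusted p 0.0583 to 0.16), and that of PTGR1 also after quantile normalization (difference -0.48). The genes added without the 004 array were SESN3 (-0.92), ME1 (-0.72) and UGDH (-0.72). In 004 against folate limma called 0 of 64, against 0% of all genes. At an unadjusted p under 0.05 there were 4 (1 without the 004 array), against 8.9% of all probe sets (3.82% without it). FOLR1 204437_s_at averaged 13.80 in no-folate, 13.79 in 003, 14.06 in MORAb003, 13.51 in 004 and 13.53 in folate arrays and was not called in any comparison. MORAb003 exceeded folate by 0.53 (SE 0.13, adjusted p = 0.0146 by limma, 7.94e-05 without the 004 array), which misses only the fold limit. A second FOLR1 probe set, 211074_at, went the other way, with 9.47 in MORAb003 and 10.38 in folate arrays, and no test of it is given.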

How the data were processed

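Total RNA of SKOV3ip1 cells was measured on 15 Affymetrix U133 Plus 2.0 arrays. The authors deposited log2 values, 1 for each probe set and array, and how they summarised and normalized them is not given in the sources used here. Groups came from the sample titles. Members and lists were chosen with earlier results of these data known. Symbols came from the platform annotation, updated through Entrez IDs for 41037 probe sets: 41091 had 1 symbol, 1801 several and 11721 none, and 62 were controls. Probe sets without 1 symbol were not named. limma 3.58.1 (R 4.3.3) fitted 5 group means over 15 arrays, 10 residual degrees of freedom, on 30127 probe sets with a group mean of at least 6.60, with Benjamini-Hochberg adjustment per comparison. For counts of genes, the brightest probe set stood for its gene. The text names all member probe sets, FOLR1, NFE2L2, KEAP1, MAFG and BACH1, up to 4 called genes per list and comparison, and the 5 genes most like AKR1C1. PIR, whose call was lost when some arrays were left out, and genes called only without the 004 array are named in addition. Replicate numbers do not pair arrays: deviations of same-numbered arrays correlated by -0.54 to 0.50 (median -0.07). The fit was tested on simulated data. Alternatives covered normalization, filters, probe-set choice, fold limits, blocks, array dates given in the descriptions, and each array left out. The number of arrays limits the precision.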

Additional observations from a re-analysis of the deposited data

How the results depend on the processing

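The arrays are aliquots of 1 extract per condition, so nothing here speaks to the spread between cultures, and probe sets near background carry little signal. The main count of called member probe sets in no-folate against folate, 1, was 0 with a 2-fold minimum and 0 on the first array date alone, and 0 to 1 when 1 array was left out. Under quantile normalization it stayed 1, but the probe set called was AKR1C1 and not TXNRD1. In MORAb003 against folate the main count of 0 became 1 with only the 6 arrays compared, and was 0 to 1 with 1 array left out. In MORAb003 against 003 the main count of 3 was 1 under quantile normalization, with 1 probe set per gene, with a 2-fold minimum and on the first array date, 6 with no fold minimum, 5 with only the 6 arrays compared, and 1 to 5 with 1 array left out. With the replicate block the counts were 1, 0, 0, 0 and 3, as without it, although same-numbered arrays share only a number and an array date. The counts for 003 and 004 against folate were 0 in every alternative. The AKR1C1 difference was 0.71 for 003 against 004 and 0.27 over the mean of all its probe sets, and 0.47 to 0.84 with 1 array left out. For MORAb003 against 004 it was 0.85, 0.52 after quantile normalization, 0.29 over all probe sets and 0.60 to 0.98 with 1 array left out. None of the 40 called named differences changed sign. Quantile normalization moved the median of all probe sets in 004 against folate to -0.01, from -0.10 as deposited. It turned the sign of these uncalled differences: MORAb003 against folate for NQO1 (-0.058) and GCLM (-0.0024), and 004 against folate for TXNRD1 (0.011), SRXN1 (0.080), NFE2L2 (0.0019), KEAP1 (0.067) and FOLR1 (0.067). On the first array date HMOX1 (0.036) and NQO1 (-0.086) turned in MORAb003 against folate. With 1 array left out, uncalled differences of either sign were seen for HMOX1 in no-folate (-0.062 to 0.014), 003 (-0.0030 to 0.066), MORAb003 (-0.075 to 0.036) and 004 (-0.011 to 0.057) against folate and in MORAb003 against 003 (-0.10 to 0.0086), for NQO1 (-0.061 to 0.047) and BACH1 (-0.010 to 0.071) in MORAb003 against folate, and for SRXN1 in 003 against folate (-0.0046 to 0.062). In 004 against folate the same held, through 004 replicate 1, for NQO1 (-0.31 to 0.0033), TXNRD1 (-0.22 to 0.033), SRXN1 (-0.21 to 0.023), NFE2L2 (-0.43 to 0.058), KEAP1 (-0.28 to 0.012) and BACH1 (-0.019 to 0.37), and for FOLR1 (-0.15 to 0.14) also through folate replicate 2. The cause was not tested.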

Other observations

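The AKR1C genes next to AKR1C1 in sequence did not all share its order. AKR1C2 209699_x_at averaged 10.75 in no-folate, 10.66 in 003, 10.81 in MORAb003, 10.06 in 004 and 10.22 in folate arrays, with the 004 and folate extracts lowest, as for AKR1C1. AKR1C2 211653_x_at averaged 9.66 in no-folate, 9.56 in 003, 10.14 in MORAb003, 9.24 in 004 and 9.43 in folate arrays, so MORAb003 stood above the others. AKR1C3 209160_at averaged 8.62 in no-folate, 7.91 in 003, 9.63 in MORAb003, 7.81 in 004 and 8.23 in folate arrays, with the 003 extract below the folate extract. 1555854_at, annotated to both AKR1C2 and AKR1C1 and therefore no member, averaged 4.82 in no-folate, 4.80 in 003, 5.49 in MORAb003, 4.93 in 004 and 4.93 in folate arrays, below the filter on low values, and its MORAb003 arrays (5.35 to 5.61) were above all others (4.75 to 5.04).
The brightest FOLR1 probe set and another one, 211074_at, differed in order: 211074_at averaged 11.15 in no-folate, 10.86 in 003, 9.47 in MORAb003, 10.19 in 004 and 10.38 in folate arrays.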
